A study of Homo sapiens with 5 samples.

Results

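MCC13 and REH are human cell lines that were profiled by RNA sequencing, with 1 library each. MCC13 is labelled Merkel cell carcinoma, a skin cancer with neuroendocrine features, and REH is labelled pre-B-cell acute lymphoblastic leukemia, a cancer of B cell precursors. Both are given as genotype WT, both were grown in RPMI medium with fetal bovine serum, and the labels name no treatment. The series also holds MKL-1, MKL-2 and WaGa, 3 further lines labelled Merkel cell carcinoma and genotype WT, grown alike, with 1 library each. They serve here only to place a difference between MCC13 and REH.

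Genes at 1 TPM or more in MCC13 or in REH were described, which were 18996 of the 57905 genes of the table. TPM, a count of transcripts scaled to a fixed total, is a level per transcript length, so levels of different genes can be set side by side. The difference of a gene is its log2(TPM + 1) in MCC13 minus that in REH, and a positive value means a higher level in MCC13. A difference of 2 or more either way, which is 4-fold on the TPM + 1 scale, is called past 4-fold below. With 1 library per line there was no replicate error and no test was made. The effect of a line and that of its library cannot be told apart. Nothing in the labels gives the number of cultures behind a library. In RNA from many cells, fewer cells that express a gene and less of its RNA per cell cannot be told apart.

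Adherent cells hold on to a matrix of collagens, fibronectin and laminins through integrins, and the plaques where they do so, the focal adhesions, anchor contractile actin bundles. The transcriptional co-activators YAP and TAZ act with TEAD factors on genes of matrix and growth, and they are known to depend on that anchorage. Precursor B cells grow without it. They are known for the transcription factors PAX5 and EBF1, for the pre-B receptor, made of an immunoglobulin heavy chain and a surrogate light chain, and for the recombinase that joins antibody gene segments.

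The defining markers were compared with the labels first. CD79A, a receptor chain of B cells, had 0.632 TPM in MCC13 against 1091 TPM in REH. Of the 10 pre-B markers, 9 were above 50 TPM in REH, and VPREB1, a surrogate light chain gene, was listed at 0 in REH and in the 4 other lines. Most Merkel markers were at or near 0 in MCC13. ATOH1, INSM1, ISL1, POU4F3 and KRT20, which define Merkel cells and their carcinoma, stood at 0.165 TPM or less in MCC13, and ATOH1 had 1067, 789 and 869 TPM in the MKL-1, MKL-2 and WaGa libraries. CHGA, SOX2, SYP and NCAM1, the other markers used, stood at 0.415, 0.945, 3.23 and 0.345 TPM in MCC13. MCC13 is therefore called by its name below, with no cell type attached. In the melanocyte list 1 of 3 described genes was past 4-fold towards MCC13 and 0 towards REH. That 1 was MITF, at 16.1 TPM in MCC13 and listed at 0 in REH. In the muscle list 2 of 5 were past 4-fold towards MCC13 and 0 towards REH. These were CNN1, at 260 TPM in MCC13 against 0.647 TPM in REH, and SMTN, at 425 TPM in MCC13 against 36.4 TPM in REH. In the endothelial list 0 of 8 were past 4-fold towards MCC13 and 2, ERG and EGFL7, towards REH. SOX10, TYR, VWF, DES and MYOD1 stood under 1 TPM in both lines. Other members of these lists were low but not absent. PMEL had 1.3 TPM in MCC13 against 2.55 TPM in REH, and ACTA2 had 6.11 TPM in MCC13 against 2.54 TPM in REH. FLT1 had 5.64 TPM in MCC13 against 0.816 TPM in REH.

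Of the 18996 genes, 2233 were past 4-fold in the direction of MCC13, which is 11.8%, and 1741 in the direction of REH, which is 9.17%. The balance depended on the limit, since a difference of 1 or more was found for 4559 genes towards MCC13 and 4953 towards REH. With a pseudocount of 5 TPM, 1089 genes higher in MCC13 and 812 genes higher in REH were past 4-fold. The shares of 11.8% and 9.17% are the background against which every list above and below is read. Differences within 1 of 0 were found for 9484 genes, and the median difference was -0.11. Genes past 4-fold towards MCC13 made up 20.5% of the TPM in MCC13 and 1.46% of the TPM in REH. Genes past 4-fold towards REH made up 1.45% of the TPM in MCC13 and 14.6% of the TPM in REH. Levels of 1 TPM or more in both lines were found for 13050 genes, in MCC13 alone for 2899 and in REH alone for 3047. Among genes with a known gene type, 1873 of 2165 past 4-fold towards MCC13 were protein-coding, and 1053 of 1664 towards REH. Over all described genes with a gene type this was 13501 of 18215. The difference nearest to 2 from above belonged to a clone-named gene with 5.33 TPM in MCC13 and 0.58 TPM in REH, and the nearest from below to SMPDL3B, with 3.13 TPM in MCC13 and 0.0331 TPM in REH.

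A few facts of the columns touch what follows. In REH, 21 genes were listed at 0 that stood at 50 TPM or more in each of the 4 other lines, and in MCC13 there were 0 such genes. Since an exact 0 may reflect a failed estimate, these genes are written as listed at 0, with no fold. Among the genes past 4-fold, 746 of those towards MCC13 were listed at 0 in REH, and 285 of those towards REH were listed at 0 in MCC13. Mitochondrially encoded genes took 3.52% of the TPM in MCC13 and 0.783% in REH, and ribosomal protein genes 8.72% in MCC13 and 12.1% in REH.

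**Figure D1:**
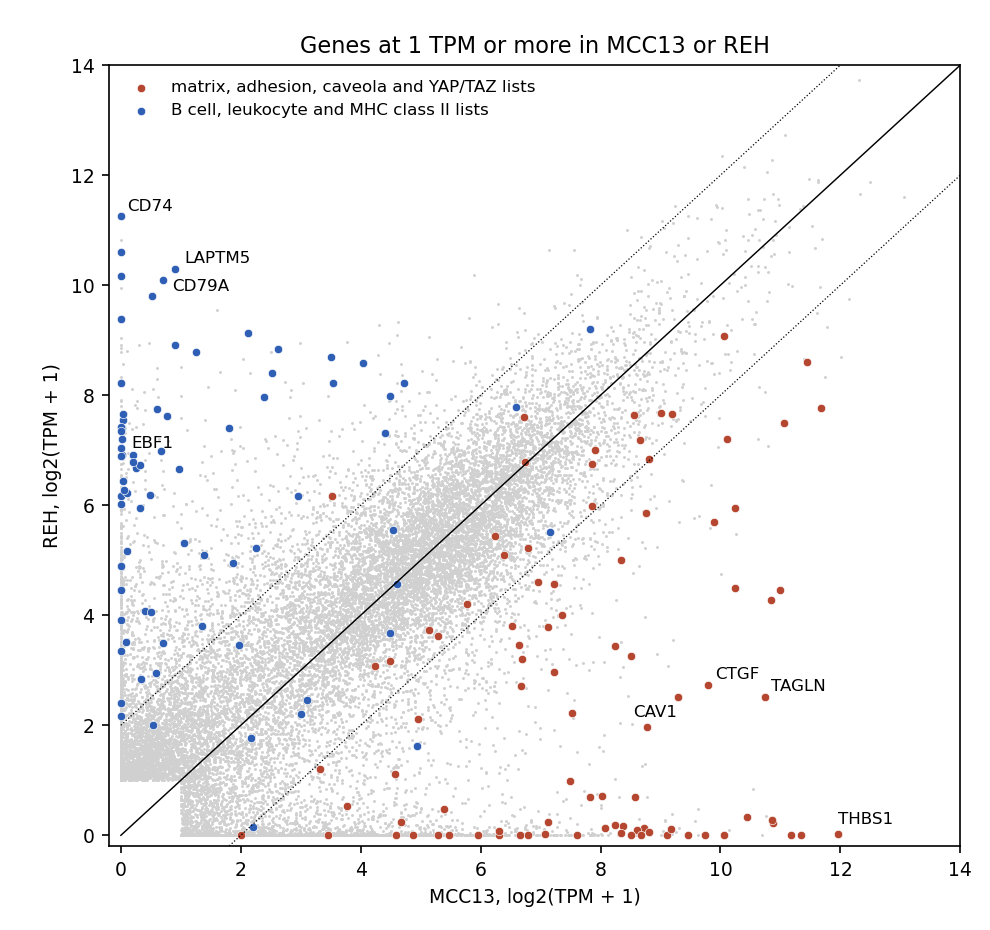
Level of each described gene in MCC13 (horizontal axis) and REH (vertical axis), both as log2(TPM + 1), 1 library each; red marks 4 lists on matrix, adhesion, caveolae and YAP/TAZ, blue marks 4 lists on B cells, leukocytes and MHC class II. The solid line marks equal levels and the dotted lines a difference of 2 either way; most blue points lie above the upper dotted line and most red points below the lower one.

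Transcripts of most matrix proteins were abundant in MCC13 and scarce in REH. THBS1, which encodes the adhesive glycoprotein thrombospondin-1, stood at 3987 TPM in MCC13 against 0.0136 TPM in REH, and at 44.9, 7.37 and 28.4 TPM in the MKL-1, MKL-2 and WaGa libraries. Its difference of 11.94 was the largest of all described genes. FN1, fibronectin, had 1869 TPM in MCC13 against 0.173 TPM in REH. SPARC, a collagen-binding matricellular protein, had 1067 TPM in MCC13 and was listed at 0 in REH. Of the 30 matrix and matricellular genes listed other than collagens, 23 reached 1 TPM in either line. Past 4-fold were 19 towards MCC13 and 0 towards REH, with a median difference of 5.47. The list summed to 13994 TPM in MCC13 and 339 TPM in REH. EFEMP1, a fibulin, was the 1 described member with a negative difference, at 105 TPM in MCC13 against 193 TPM in REH, and it was listed at 0 in MKL-1, MKL-2 and WaGa.

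Basement membrane collagens were among those that differed. COL4A1 and COL4A2, the paired chains of collagen IV, had 793 and 766 TPM in MCC13, against 0.387 and 0.193 TPM in REH. Of 14 described collagens, 11 were past 4-fold towards MCC13 and 0 towards REH, with a median difference of 5.38. The fibrillar collagens did not follow as one group. COL1A2 had 47.8 TPM in MCC13 against 0.212 TPM in REH, while its partner chain COL1A1 had 36.7 TPM in MCC13 against 20.3 TPM in REH. COL5A1 had 205 TPM in MCC13 against 407 TPM in REH, the higher level being in REH.

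Most genes for enzymes that cut the matrix and for their inhibitors were higher in MCC13. PLAU, the urokinase that activates plasminogen, had 255 TPM in MCC13 against 0.459 TPM in REH, and MMP1, an interstitial collagenase, had 829 TPM in MCC13 against 0.000355 TPM in REH. MMP1 stood at 0.0285 TPM or less in MKL-1, MKL-2 and WaGa, so its high level was seen in MCC13 alone of the 5 lines. Of 19 described proteases and inhibitors, 13 were past 4-fold towards MCC13 and 0 towards REH (median 4.19). The urokinase receptor PLAUR, at 128 TPM in MCC13 against 65.6 TPM in REH, and TIMP2, at 134 TPM in MCC13 against 208 TPM in REH, were among the 6 others.

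Most integrin and laminin genes were also higher in MCC13. ITGB1, the beta chain shared by most matrix receptors, had 903 TPM in MCC13 against 47.2 TPM in REH. ITGA3, a laminin receptor chain, had 228 TPM in MCC13 against 0.079 TPM in REH, and ITGAV, a chain of vitronectin receptors, had 122 TPM in MCC13 and was listed at 0 in REH. Past 4-fold were 16 of 20 described members towards MCC13 and 1 towards REH (median 3.57). That 1 was the laminin chain LAMA3, at 0.642 TPM in MCC13 against 8.9 TPM in REH. ITGA5, the fibronectin receptor chain, had 59.1 TPM in MCC13 against 35.1 TPM in REH, so this receptor chain differed by less than 4-fold while its ligand differed by 10.64 on the log2 scale.

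Genes for proteins of the focal adhesion and of contractile actin bundles summed to 21488 TPM in MCC13 and 2437 TPM in REH. Of 31 described members, 22 were past 4-fold towards MCC13 and 1 towards REH (median 3.48). The members fell into those nearly confined to MCC13 and those present in both. TAGLN, an actin-binding protein of contractile cells, had 1715 TPM in MCC13 against 4.73 TPM in REH. MYL9, a myosin light chain, had 550.5 TPM in MCC13 and was listed at 0 in REH, MKL-1, MKL-2 and WaGa. The core adaptors were closer between the lines. TLN1, talin, had 375 TPM in MCC13 against 199.6 TPM in REH, ILK had 239 TPM in MCC13 against 127 TPM in REH, and the focal adhesion kinase PTK2 had 106 TPM in MCC13 against 109 TPM in REH. TAGLN2, a relative of TAGLN, had 2601 TPM in MCC13 and was listed at 0 in REH, but it is 1 of the 21 genes with 50 TPM or more in every other line. TNS1, a tensin, was the member past 4-fold towards REH, at 10.5 TPM in MCC13 against 71 TPM in REH.

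Caveolae are small membrane pits that adherent cells carry in numbers. CAV1, their main coat protein, had 625 TPM in MCC13 against 4.68 TPM in REH, and PTRF, the cavin that completes the coat, had 859.9 TPM in MCC13 and was listed at 0 in REH. Of 19 described caveola, annexin, galectin and S100 genes, 15 were past 4-fold towards MCC13 and 0 towards REH (median 5.30). ANXA2, a membrane-binding annexin, had 2026 TPM in MCC13 against 21 TPM in REH, and its partner S100A10 had 78.5 TPM in MCC13 and was listed at 0 in REH. ANXA5, at 515 TPM in MCC13 against 204 TPM in REH, and ANXA6, at 586 TPM in MCC13 against 200.2 TPM in REH, differed by less. All 19 differences were positive.

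Genes of the YAP and TAZ pathway were expressed in MCC13, and those of its co-activators were listed at 0 in REH. YAP1 had 100.1 TPM in MCC13 and was listed at 0 in REH, and WWTR1, which encodes TAZ, had 408 TPM in MCC13 and was listed at 0 in REH. In MKL-1, MKL-2 and WaGa, YAP1 stood at 0.0104 TPM or less and WWTR1 at 1.83 TPM or less. Of the DNA-binding partners, TEAD1 had 41.1 TPM in MCC13 against 0.397 TPM in REH, and TEAD4 110.2 TPM in MCC13 against 36.4 TPM in REH. Of the target genes, ANKRD1 had 2320.1 TPM in MCC13 and was listed at 0 in REH. CYR61 had 1849.7 TPM in MCC13 against 0.22 TPM in REH, and CTGF had 884 TPM in MCC13 against 5.68 TPM in REH. Past 4-fold were 16 of 19 described members towards MCC13 and 0 towards REH (median 5.29).

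The promoters of these targets are known for TEAD sites, so 2 of them are printed, together with that of the connexin gene GJA1, a member of the junction list, which had 788 TPM in MCC13 and was listed at 0 in the 4 other lines. Each run is the 250 bases before the RefSeq start of the gene in build GRCh38.p14, 5′ to 3′ on the strand of the gene. In CTGF (chr6:131951373-131951622, minus strand) and ANKRD1 (chr10:90921088-90921337, minus strand) the capitals mark the TEAD letters GGAATG. In GJA1 (chr6:121435396-121435645, plus strand) they mark TGANTCA, the letters of AP-1 sites.
CTGF: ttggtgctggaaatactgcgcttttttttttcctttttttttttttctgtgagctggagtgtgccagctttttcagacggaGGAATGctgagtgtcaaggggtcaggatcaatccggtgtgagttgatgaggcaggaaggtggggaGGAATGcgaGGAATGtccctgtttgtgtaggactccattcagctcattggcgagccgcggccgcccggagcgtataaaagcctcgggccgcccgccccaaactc
ANKRD1: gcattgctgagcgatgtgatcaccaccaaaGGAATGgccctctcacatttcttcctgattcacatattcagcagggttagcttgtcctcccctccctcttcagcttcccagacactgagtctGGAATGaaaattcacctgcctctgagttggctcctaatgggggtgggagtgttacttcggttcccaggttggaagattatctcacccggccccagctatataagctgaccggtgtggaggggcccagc
GJA1: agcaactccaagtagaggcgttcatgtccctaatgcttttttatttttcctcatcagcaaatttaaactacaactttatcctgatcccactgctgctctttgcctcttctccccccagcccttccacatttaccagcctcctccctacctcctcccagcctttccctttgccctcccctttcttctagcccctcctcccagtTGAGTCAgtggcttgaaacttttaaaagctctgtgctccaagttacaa
CTGF holds GGAATG at 169, 104 and 95 bases before the start, ANKRD1 at 220 and 128, and the GJA1 match lies at 48. Both strands were searched, and no searched motif contains another. A match is a run of letters and not a shown binding site.

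RefSeq promoters were found for 12011 of the 18996 described genes. GGAATG was in 11.8% of the 1584 promoters of genes past 4-fold towards MCC13, in 9.44% of the 890 towards REH, in 8.63% of the 6443 with a difference within 1 of 0 and in 9.34% of all 12011. Over all 27305 promoters of the RefSeq table the share was 11.9%. For genes with a difference of 5 or more it was 15.96% of 307 towards MCC13 and 12.6% of 135 towards REH. TGANTCA was in 7.51% of the promoters of genes past 4-fold towards MCC13, in 4.16% of those towards REH and in 2.996% of those within 1 of 0. It was in 3.90% of all 12011 and in 6.596% over the table. Of the AP-1 subunits, FOSL1 was at 415 TPM in MCC13 against 1.39 TPM in REH, and JUN at 187 TPM in MCC13 against 4.51 TPM in REH. FOS differed little, at 5.59 TPM in MCC13 against 5.24 TPM in REH.

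MCC13 also held transcripts of a wide set of secreted signals. IL6 and CXCL1, both inflammatory mediators, had 127 and 247 TPM in MCC13 and were listed at 0 in REH. IL8, a neutrophil attractant, had 299.9 TPM in MCC13 against 1.04 TPM in REH, and HBEGF, a ligand of EGFR, had 366 TPM in MCC13 against 3.07 TPM in REH. Of 34 described secreted growth factors and cytokines, 22 were past 4-fold towards MCC13 and 2 towards REH (median 4.85). Those 2 were IL1B, at 0.234 TPM in MCC13 against 20.8 TPM in REH, and the death ligand TNFSF10, at 0.0489 TPM in MCC13 against 5.88 TPM in REH. TGFB1 was present in both, with 157 TPM in MCC13 against 97.5 TPM in REH, while TGFB2 had 116 TPM in MCC13 against 0.0149 TPM in REH. Among TGF-beta receptors and response genes 7 of 20 were past 4-fold towards MCC13 and 0 towards REH (median 1.59). ID1, a response gene, had 46.7 TPM in MCC13 against 0.806 TPM in REH, and ID3 had 331 TPM in MCC13 against 322 TPM in REH.

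More receptor tyrosine kinases were past 4-fold towards MCC13 than towards REH, with 8 and 3 of 25 described (median 1.004). The count towards REH is near the share of 9.17% over all described genes. AXL had 579 TPM in MCC13 against 0.0815 TPM in REH, MET 424 TPM in MCC13 against 0.0573 TPM in REH, and EPHA2 536 TPM in MCC13 against 0.207 TPM in REH. EGFR had 36 TPM in MCC13 and was listed at 0 in REH. The receptors towards REH were FLT3, which early blood precursors carry, at 0.0413 TPM in MCC13 against 76.8 TPM in REH, the insulin receptor INSR at 5.82 TPM in MCC13 against 136 TPM in REH, and PDGFRB at 4.11 TPM in MCC13 against 48.4 TPM in REH. FGFR1 stood at 82 TPM in MCC13 against 100.4 TPM in REH, and at 4 TPM or less in MKL-1, MKL-2 and WaGa.

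Some keratin and junction genes were high in MCC13, while several epithelial genes were near 0. KRT17, a keratin of activated skin epithelium, had 1649 TPM in MCC13 and was listed at 0 in REH. KRT8 and KRT18, which pair in simple epithelia, had 313 and 229 TPM in MCC13 and were listed at 0 in REH, and both are among the 21 genes with 50 TPM or more in every other line. The epithelial adhesion genes CDH1 and EPCAM stood at 0.134 and 0.484 TPM in MCC13, and at 0.0275 TPM and listed at 0 in REH. TP63 had 0.013 TPM in MCC13 against 1.69 TPM in REH, and KRT5 was listed at 0 in both. Past 4-fold were 4 of 10 described epithelial genes towards MCC13 and 2 towards REH, and 5 of 10 keratinocyte genes towards MCC13 and 0 towards REH. Of 25 described cadherin and junction genes, 17 were past 4-fold towards MCC13 and 0 towards REH (median 3.02, and 1.96 with a pseudocount of 5 TPM). DSC3, a desmosomal cadherin, was at 61.7 TPM in MCC13 against 20.5 TPM in REH, and the plaque protein JUP at 199 TPM in MCC13 against 459.8 TPM in REH.

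Mesenchymal genes leaned the same way with exceptions. THY1, a surface glycoprotein of fibroblasts and other cells, had 364 TPM in MCC13 against 0.0178 TPM in REH, and FOXC2, a forkhead factor, had 129.9 TPM in MCC13 and was listed at 0 in REH. Past 4-fold were 10 of 17 described members towards MCC13 and 3 towards REH (median 2.15, and 0.91 without genes listed at 0). TWIST1, TWIST2, SNAI2 and PRRX1 were all listed at 0 in REH and stood between 6.34 and 13.7 TPM in MCC13. S100A4, a calcium-binding protein of motile cells, was 1 of the 3 towards REH, at 0.311 TPM in MCC13 against 265 TPM in REH. ZEB2, a repressor of epithelial genes, had 25.5 TPM in MCC13 against 68.9 TPM in REH, and ZEB1 had 26.4 TPM in MCC13 against 5.16 TPM in REH.

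**Figure D2:**
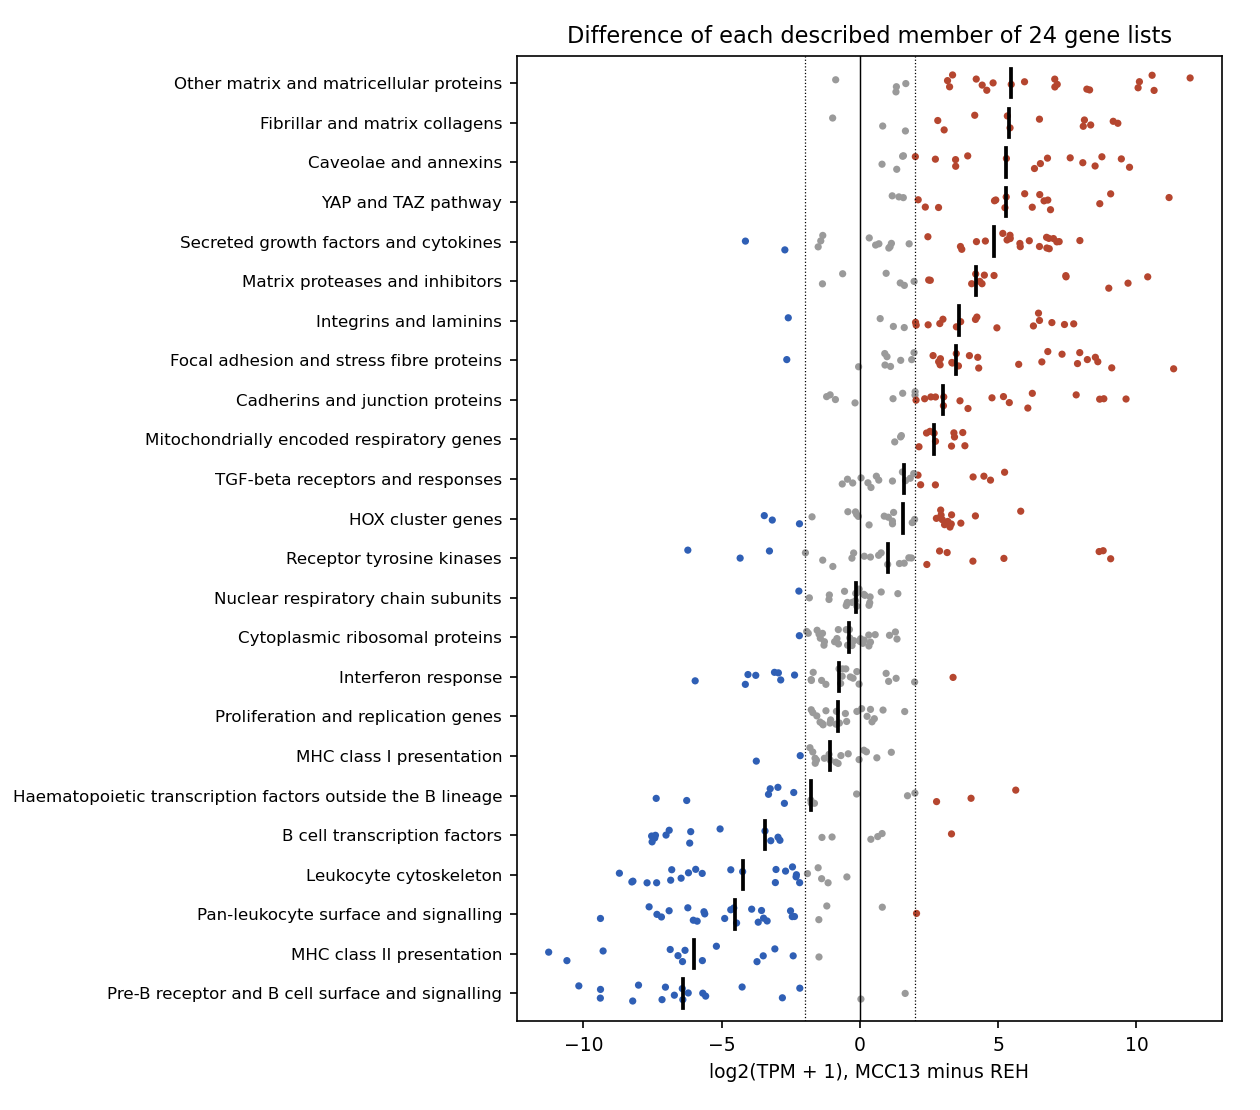
Difference of log2(TPM + 1), MCC13 minus REH, for each described member of 24 of the 44 gene lists; points are genes, black bars are list medians, and dotted lines mark a difference of 2 either way. Medians run from 5.47 for matrix and matricellular proteins down to -6.41 for the pre-B receptor and B cell surface list, with proliferation and nuclear respiratory genes between the dotted lines.

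REH held the B lineage programme. PAX5, the commitment factor of B cells, had 0.0228 TPM in MCC13 against 186 TPM in REH, and EBF1 had 0.0126 TPM in MCC13 against 119.7 TPM in REH. Both genes were also present in the 3 lines outside this pair, PAX5 at 91.9, 75 and 38.4 TPM and EBF1 at 64.6, 52.7 and 55.5 TPM in the MKL-1, MKL-2 and WaGa libraries, so that MCC13 was the 1 line of the 5 under 1 TPM for either. IKZF1, a lymphoid zinc finger factor, was different, with 0.0102 TPM in MCC13, 169 TPM in REH and a listing at 0 in the other 3. Of 19 described B cell transcription factors, 1 was past 4-fold towards MCC13 and 13 towards REH (median -3.43). The 1 was ETV6, at 29.8 TPM in MCC13 against 2.1 TPM in REH, with 19 to 21.6 TPM in the other 3 lines. RUNX1, its fusion partner in a subtype of this leukaemia, had 22.2 TPM in MCC13 against 45.7 TPM in REH. TCF3, which encodes the E2A factors, was at 226 TPM in MCC13 against 586 TPM in REH.

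The pre-B receptor list had the lowest median difference of the 44 lists. IGLL1, a surrogate light chain gene, was listed at 0 in MCC13 and had 1147 TPM in REH. CD79B, a signalling chain of the receptor, was listed at 0 in MCC13 and had 666 TPM in REH. Downstream, the kinase gene SYK had 0.515 TPM in MCC13 against 215 TPM in REH, BTK 0.968 TPM in MCC13 against 100.1 TPM in REH, and the adaptor BLNK was listed at 0 in MCC13 and had 129.96 TPM in REH. Past 4-fold were 0 of 18 described members towards MCC13 and 16 towards REH (median -6.41). The other members were the kinase LYN, with 23.5 TPM in MCC13 against 22.9 TPM in REH, and the tetraspanin CD9, with 142 TPM in MCC13 against 44.9 TPM in REH. MS4A1, which encodes CD20 of later B cells, was listed at 0 in MCC13 and stood at 0.0359 TPM in REH.

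Some recombination genes were far higher in REH and others differed little. RAG1 and RAG2, which cut the antibody genes, had 2.03 and 0.0462 TPM in MCC13, against 745 and 159 TPM in REH. DNTT, the polymerase that adds bases at the joints, was listed at 0 in MCC13 and had 1814 TPM in REH. The end-joining genes that every cell uses differed little, with XRCC5 at 463 TPM in MCC13 against 364 TPM in REH and LIG4 at 18.9 TPM in MCC13 against 32.6 TPM in REH. HMGB2, a general chromatin protein that also assists the recombinase, had 193 TPM in MCC13 against 1163 TPM in REH, and 732 to 980.01 TPM in the other 3 lines. In all, 0 of 12 members were past 4-fold towards MCC13 and 4 towards REH (median -0.50).

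Most general leukocyte genes were also higher in REH. PTPRC, the leukocyte common antigen CD45, was listed at 0 in MCC13 and had 118 TPM in REH, and LAPTM5, a lysosomal protein of blood cells, had 0.876 TPM in MCC13 against 1251 TPM in REH. Of 26 described members, 1 was past 4-fold towards MCC13 and 22 towards REH (median -4.51). SELPLG, the ligand of selectins, was that 1, at 3.6 TPM in MCC13 against 0.112 TPM in REH. The integrin chain ITGB2 had 21.5 TPM in MCC13 against 11.9 TPM in REH, and its partner ITGAL stood at 0.745 TPM or less in both.

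Some genes of other blood lineages were also higher in REH. SPI1, which encodes PU.1, a factor of myeloid and B cells, had 0.0986 TPM in MCC13 against 180.4 TPM in REH. Among myeloid genes, MPO, the granule peroxidase, and AIF1, a calcium-binding protein of macrophages, were listed at 0 in MCC13 and had 156 and 524 TPM in REH, while CD14, LYZ and ELANE stood under 1 TPM in both lines. Past 4-fold were 1 of 5 described myeloid genes towards MCC13, the lysosomal gene CD68, and 4 towards REH, and 0 of 4 described T and NK genes towards MCC13 and 2 towards REH, with CD3D and CD3E listed at 0 in both. Of 16 described haematopoietic factors outside the B lineage, 3 were past 4-fold towards MCC13 and 7 towards REH (median -1.77). LYL1 had 3.43 TPM in MCC13 against 339 TPM in REH. On the other side, RUNX3 had 62.7 TPM in MCC13 against 0.282 TPM in REH, and MEIS1 had 15.6 TPM in MCC13 against 0.0248 TPM in REH.

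MHC class II genes, whose products show peptides to helper T cells, were higher in REH in all but 1 case by 4-fold or more. CD74, the invariant chain, was listed at 0 in MCC13 and had 2444 TPM in REH. HLA-DRA was listed at 0 in MCC13 and had 1547 TPM in REH, and CIITA, the master activator of the class, had 0.243 TPM in MCC13 against 105 TPM in REH. Of the 14 members, 0 were past 4-fold towards MCC13 and 13 towards REH, HLA-DOB being the other (median -6.01). HLA-DPA1 and HLA-DPB1 were not silent in MCC13, at 10.3 and 25.5 TPM, against 412 and 298 TPM in REH. HLA genes are near-copies of one another and their reads may have been shared between them. MHC class I was on in both lines, with B2M at 493 TPM in MCC13 against 1069 TPM in REH, and 0 of 19 members past 4-fold towards MCC13 and 2 towards REH (median -1.08).

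The promoters of 3 REH genes show letters that B cell and myeloid factors are known to bind. VAV1 (chr19:6772458-6772707, plus strand) and BTK (chrX:101390797-101391046, minus strand) are printed for the PU.1 letters GAGGAAGT, in capitals on either strand. VPREB3 (chr22:23754426-23754675, minus strand) is printed for the octamer ATTTGCAT of POU factors. VAV1 was listed at 0 in MCC13 and had 303 TPM in REH, and VPREB3, which is associated with the pre-B receptor, had 0.865 TPM in MCC13 against 479 TPM in REH.
VAV1: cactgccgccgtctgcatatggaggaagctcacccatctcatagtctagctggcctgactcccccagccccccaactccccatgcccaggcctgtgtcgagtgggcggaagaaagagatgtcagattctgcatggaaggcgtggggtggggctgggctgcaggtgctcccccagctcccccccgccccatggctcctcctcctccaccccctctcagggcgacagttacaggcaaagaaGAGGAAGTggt
BTK: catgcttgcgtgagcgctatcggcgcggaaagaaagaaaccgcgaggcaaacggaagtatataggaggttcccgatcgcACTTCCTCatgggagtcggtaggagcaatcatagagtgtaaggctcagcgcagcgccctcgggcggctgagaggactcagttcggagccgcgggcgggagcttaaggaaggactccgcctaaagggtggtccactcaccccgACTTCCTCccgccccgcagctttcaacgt
VPREB3: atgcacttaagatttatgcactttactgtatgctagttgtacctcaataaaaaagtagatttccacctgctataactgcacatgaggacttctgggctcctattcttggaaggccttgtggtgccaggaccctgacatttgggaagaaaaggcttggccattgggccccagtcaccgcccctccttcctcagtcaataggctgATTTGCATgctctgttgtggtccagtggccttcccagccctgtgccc
The match lies 11 bases before the start in VAV1, at 171 and 29 in BTK and at 47 in VPREB3. GAGGAAGT was in 2.27% of promoters of genes past 4-fold towards MCC13, 4.38% towards REH and 1.86% within 1 of 0. It was in 2.19% of all 12011 and 2.13% over the RefSeq table. ATTTGCAT was in 1.58% towards MCC13, 2.36% towards REH, 1.12% within 1 of 0, 1.35% of all 12011 and 1.66% over the table. The EBF letters TCCCNNGGGA were in 1.33% towards MCC13, 1.46% towards REH, 1.06% within 1 of 0, 1.22% of all 12011 and 1.08% over the table.

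The base composition of the promoters also differed between the sides. The CpG ratio of a promoter is its number of CG pairs over that given by its C and G content, and promoters without a CpG island have low ratios. A ratio under 0.4 was found for 17.05% of the promoters of genes past 4-fold towards MCC13 and for 29.9% of those towards REH, against 8.07% within 1 of 0 and 12.6% of all described genes with a promoter. Over all 27305 promoters of the RefSeq table, most of them of genes not described here, the share was 41.3%. At a difference of 5 or more it was 20.8% of 307 towards MCC13 and 50.4% of 135 towards REH. In the MHC class II list 10 of 11 promoters were under 0.4, in the pan-leukocyte list 12 of 20, in the YAP and TAZ list 4 of 14 and in the proliferation list 0 of 16. The limit and the groups were chosen after values were seen, and no test was made.

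**Figure D3:**
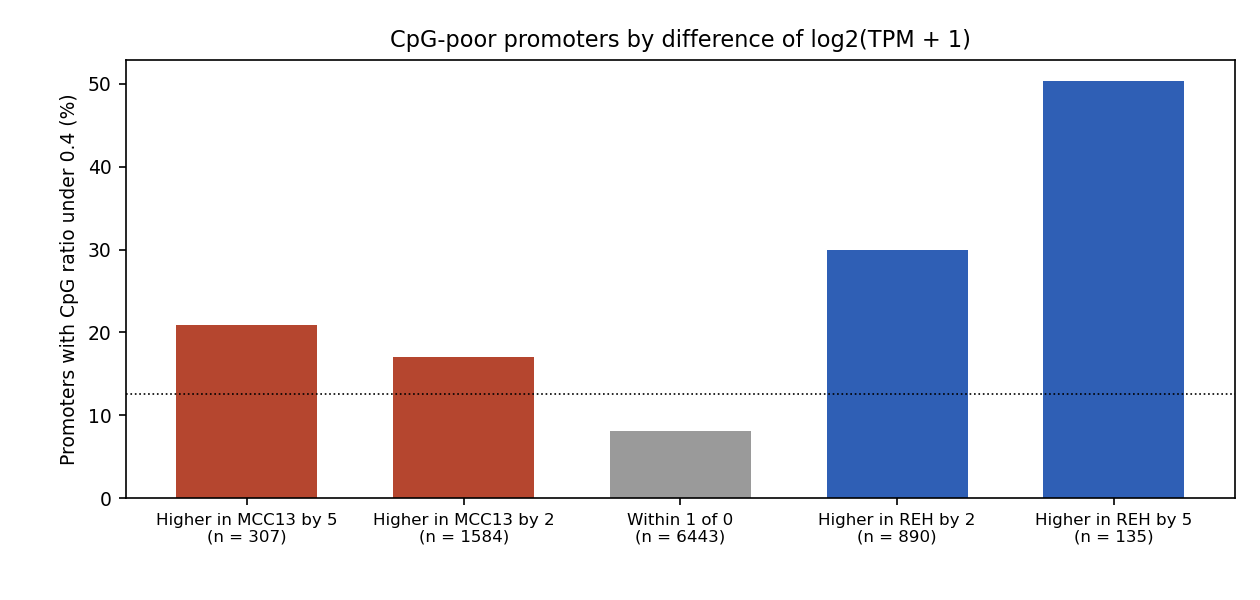
Share of promoters (250 bases before the RefSeq start) with a CpG ratio under 0.4, in percent, by the difference of log2(TPM + 1) between MCC13 and REH; n is the number of genes with a promoter and the dotted line is the share over all 12011. The share is 20.8% and 17.05% for genes higher in MCC13 by 5 and by 2, 8.07% within 1 of 0, and 29.9% and 50.4% for genes higher in REH by 2 and by 5.

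Several proteins of the cytoskeleton and of signalling exist as one form found in most adherent cells and a related form known from blood cells. In 28 such pairs, the adherent form was the higher of the pair in MCC13 and the blood form the higher in REH in 20. The adherent form was the higher in both lines in 6 pairs and the blood form in 2, and the reverse exchange occurred in 0. The blood form made up a median of 2.38% of the TPM of a pair in MCC13 and 87.6% in REH. In MKL-1, MKL-2 and WaGa that median was 1.78%, 2.55% and 2.65%, near MCC13. Several pairs departed from the median in the direction of REH, in some or all of the 3 lines. The share of CCND3 was 99.7% or more in each of these lines. That of FERMT3 was 99.8% in MKL-1 and 97.4% in WaGa, but 8.56% in MKL-2. Past 4-fold were 15 of the 28 adherent forms towards MCC13 and 20 of the 28 blood forms towards REH, with 0 of either in the opposite direction. The pairs were listed by known tissue use, so the direction is in part what the listing implies.

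Some pairs were exchanged with little of the other form left. PLS3, the plastin of adherent cells, had 611 TPM in MCC13 against 0.0476 TPM in REH, while LCP1, the leukocyte plastin, had 36.1 TPM in MCC13 against 183 TPM in REH. CTTN, cortactin, had 211 TPM in MCC13 against 0.737 TPM in REH, and its blood cell relative HCLS1 had 0.532 TPM in MCC13 against 249 TPM in REH. Of the D cyclins, CCND1 had 1484 TPM in MCC13 against 0.8 TPM in REH, and CCND3 had 58.4 TPM in MCC13 against 1168 TPM in REH. In MKL-1, MKL-2 and WaGa, CCND1 stood at 0.3 TPM or less and CCND3 at 80.5 TPM or more. The high level of CCND1 was thus seen in MCC13 alone of the 5 lines. In 8 pairs the blood form was past 4-fold towards REH while the adherent form differed by less than 4-fold. The focal adhesion kinases are such a pair, since PTK2, given above, differed little and its relative PTK2B had 1.74 TPM in MCC13 against 281 TPM in REH. The exchange factors VAV2, at 33.2 TPM in MCC13 against 31.4 TPM in REH, and VAV1, given above, are another.

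Exceptions ran both ways. The PI3-kinase subunit PIK3CD, the form known from leukocytes, exceeded PIK3CA in both lines, at 95.4 TPM in MCC13 against 220.1 TPM in REH. The formin FMNL1 exceeded FMNL2 in both, at 88.4 TPM in MCC13 against 198 TPM in REH. The integrin chain ITGB1 exceeded ITGB2 even in REH, and SRC exceeded LYN in both lines, the share of LYN being 44.3% in MCC13 and 37.8% in REH. BIN2, a blood form, was listed at 0 in both lines. The leukocyte cytoskeleton list shares members with these pairs, GMFG, HCLS1 and VAV1 among them, so its counts and those of the pairs overlap. Of its 25 described genes, 0 were past 4-fold towards MCC13 and 20 towards REH (median -4.24). RAC2, the RAC GTPase of blood cells, was not among them, with 168 TPM in MCC13 against 234 TPM in REH.

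**Figure D4:**
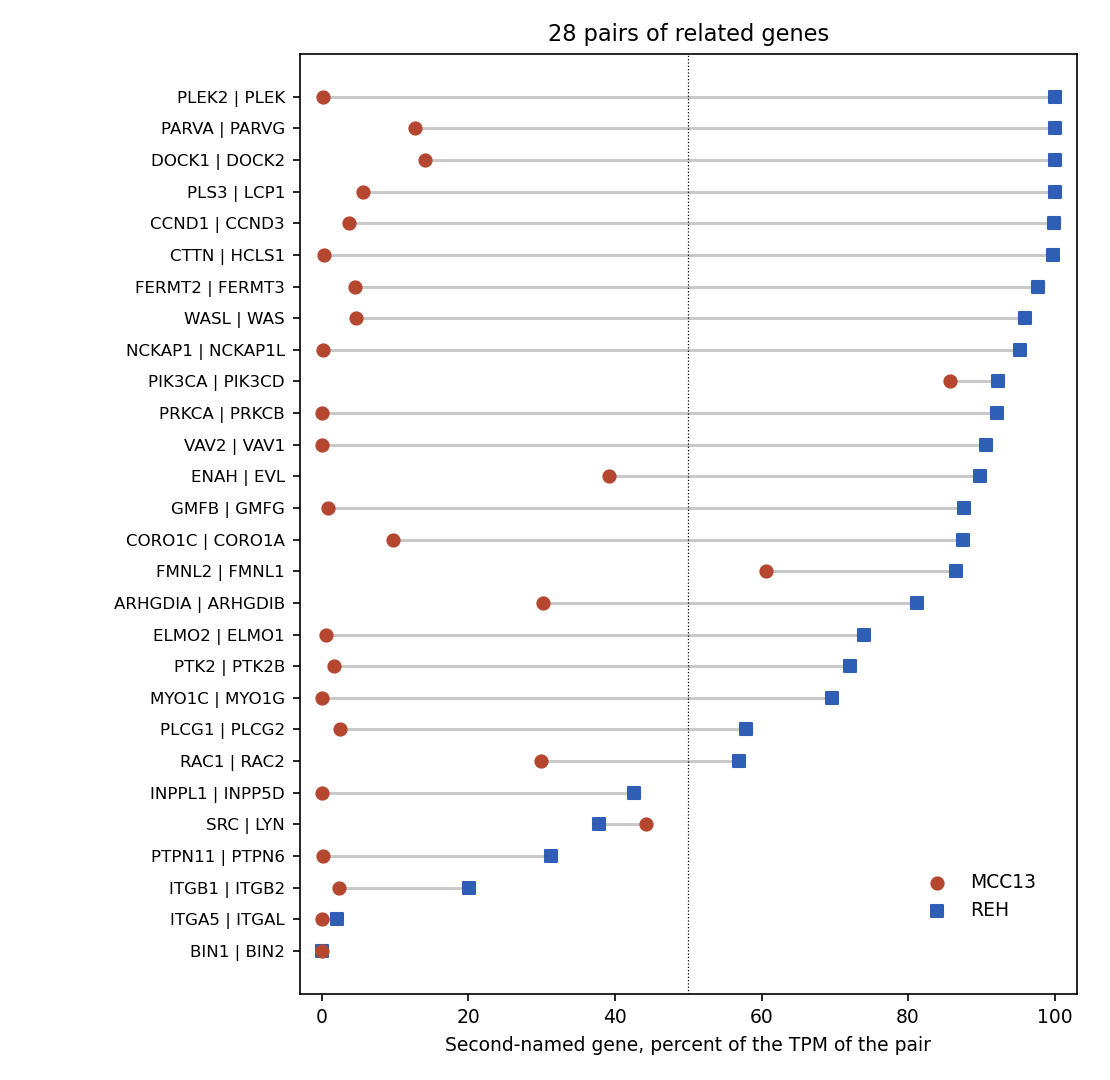
Share of the second-named gene, the form known from blood cells, in the summed TPM of each of 28 pairs, in percent; red circles are MCC13 and blue squares REH, 1 library each, and the dotted line marks equal levels. The share is larger in REH in 26 pairs, with SRC and LYN the other way and BIN2 at 0 in both lines.

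MCC13 and REH also had genes in common that the other 3 lines lacked. At 10 TPM or more in both and under 1 TPM in each of MKL-1, MKL-2 and WaGa were 90 genes, which is 1.09% of the 8229 genes at 10 TPM in both. These limits chose the genes, so the levels are a description. VIM, the intermediate filament vimentin, had 3125 TPM in MCC13 against 724 TPM in REH, and 0.0289 TPM or less in the other 3. VIM-AS1, an antisense transcript at the same locus, had 280.03 TPM in MCC13 against 127 TPM in REH, and whether counting used the strand is not stated, so its reads and those of VIM cannot be told apart. MSN, moesin, which ties actin to the membrane, had 798 TPM in MCC13 against 372 TPM in REH. Of the 90, 37 had a difference within 1 of 0, while 18 were past 4-fold towards MCC13 and 11 towards REH.

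Sensors and effectors of innate defence were among these shared genes. IFI16, a sensor of DNA, had 77.4 TPM in MCC13 against 89.7 TPM in REH, and was listed at 0 in the other 3 lines. TMEM173, which encodes the STING adaptor of DNA sensing, had 25.2 TPM in MCC13 against 32.5 TPM in REH. SLFN11, which acts on stalled replication, had 85.2 TPM in MCC13 against 82.7 TPM in REH. The cytidine deaminases APOBEC3C, at 100.2 TPM in MCC13 against 48.2 TPM in REH, APOBEC3G, at 33.1 TPM in MCC13 against 33.7 TPM in REH, and APOBEC3B, at 146 TPM in MCC13 against 20.8 TPM in REH, are near-copies of one another. REST, the repressor of neuronal genes, had 27.7 TPM in MCC13 against 30.8 TPM in REH, and TGFBR2, the TGF-beta receptor that binds the ligand, had 55.7 TPM in MCC13 against 66.9 TPM in REH. TMEM173, SLFN11, REST and the APOBEC3 genes were all under 1 TPM in the MKL-1, MKL-2 and WaGa libraries by the rule. The interleukin-7 receptor gene IL7R, known from lymphoid precursors, belonged to the set with 15.4 TPM in MCC13 against 385 TPM in REH.

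**Figure D5:**
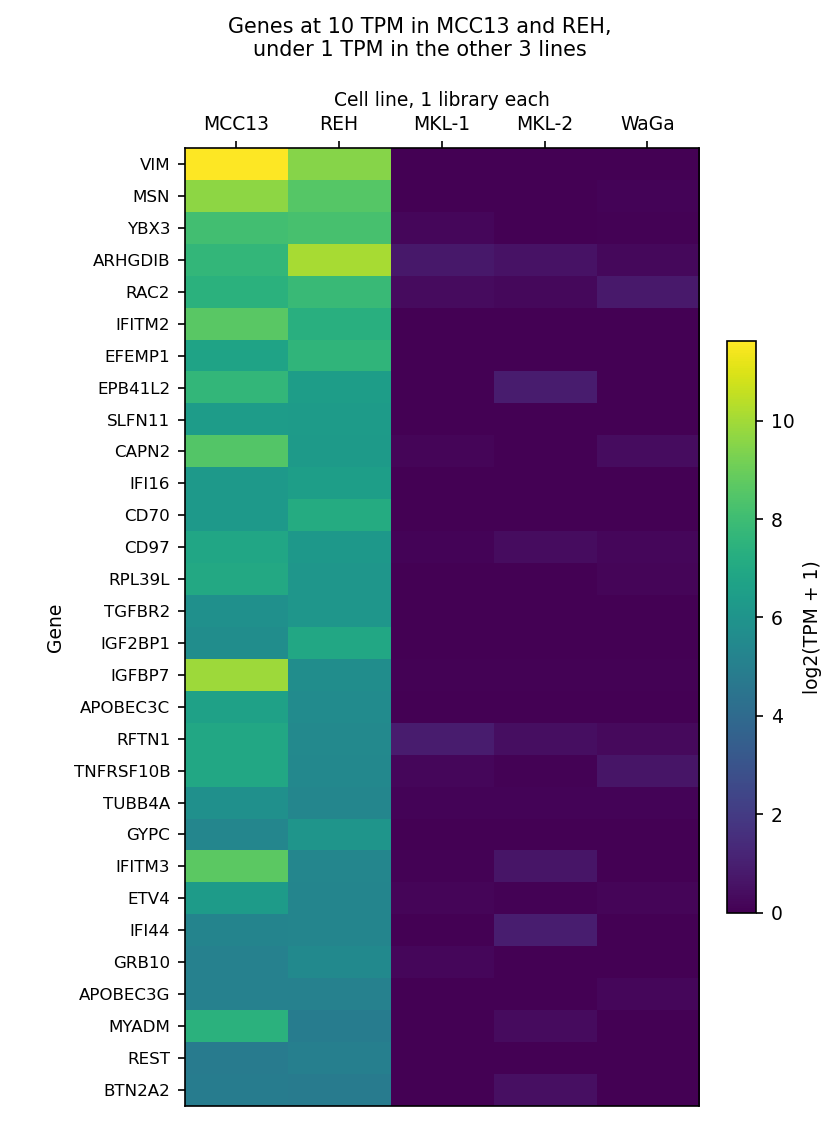
Level as log2(TPM + 1) in the 5 cell lines (columns, 1 library each) of the 30 protein-coding genes with the highest smaller value of MCC13 and REH among those at 10 TPM or more in both and under 1 TPM in the MKL-1, MKL-2 and WaGa libraries. The limits fix the contrast between the first 2 columns and the others; within the first 2, VIM is brighter in MCC13 and ARHGDIB in REH.

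What both lines lacked was a larger set. Under 1 TPM in both and at 10 TPM or more in each of the other 3 lines were 234 genes, which is 2.54% of the 9196 genes at 10 TPM in all 3. Of these, 43 were listed at 0 in both. INSM1, a neuroendocrine zinc finger factor, was listed at 0 in MCC13 and REH and had 582, 573 and 572 TPM in the MKL-1, MKL-2 and WaGa libraries. CHGA, the granule protein chromogranin A, had 0.415 TPM in MCC13 against 0.0695 TPM in REH, and 659, 539.6 and 3693 TPM in the same 3. SCNN1A, a sodium channel subunit, and GNG8, a G protein subunit, followed, at 0.517 TPM or less in both lines and 350 TPM or more in the other 3. Of the 8 described Merkel and neuroendocrine genes, 2 were past 4-fold towards MCC13 and 1 towards REH. The 2 were SNAP25, a protein of vesicle release, at 5.74 TPM in MCC13 and listed at 0 in REH, and the touch channel PIEZO2, at 5.33 TPM in MCC13 against 0.00678 TPM in REH. GFI1, a zinc finger factor of blood and neuroendocrine cells, was the 1, at 0.634 TPM in MCC13 against 11.8 TPM in REH.

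The other 3 lines also showed on which side many of the differences lay, though not all. Of the 2233 genes past 4-fold towards MCC13, all 3 other lines were nearer to REH on the log2(TPM + 1) scale for 1004, which is 45.0%, and nearer to MCC13 for 751, which is 33.6%. Of the 1741 past 4-fold towards REH, all 3 were nearer to MCC13 for 1055, which is 60.6%, and nearer to REH for 341, which is 19.6%. For the rest the 3 lines were split. Among genes towards MCC13, 1 line was nearer to MCC13 for 258 and 2 lines for 220. Among genes towards REH these counts were 173 and 172. Of the class II genes past 4-fold, all 3 lines were nearer to MCC13 for 13 of 13, and of the leukocyte cytoskeleton genes for 18 of 20. For the YAP and TAZ genes past 4-fold towards MCC13 the 3 lines were nearer to REH in 12 of 16, for secreted factors in 19 of 22 and for caveola and annexin genes in 12 of 15. For cadherin and junction genes this was 8 of 17, with 5 nearer to MCC13. The mitochondrially encoded genes past 4-fold were nearer to MCC13 in 10 of 10. By count, 20.9% of described genes were past 4-fold between MCC13 and REH and 20.3% to 21.4% between MCC13 and each of the 3, against 5.63% to 7.43% among the 3.

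Cell cycle genes showed which regulators each line carried. Proliferation genes leaned towards REH by less than 4-fold, with 0 of 22 past 4-fold either way and a median of -0.80. Of the 22 differences, 15 were negative and 7 positive, and the list summed to 5529 TPM in MCC13 and 9193 TPM in REH. MKI67 had 73 TPM in MCC13 against 55.8 TPM in REH, while the licensing factor MCM3 had 206 TPM in MCC13 against 699 TPM in REH. Of 26 described cyclins, kinases and inhibitors, 3 were past 4-fold towards MCC13 and 5 towards REH (median -1.13). RB1, the retinoblastoma gene, had 2.56 TPM in MCC13 against 64 TPM in REH, with 57.3 to 82.9 TPM in the other 3 lines, so MCC13 was the low line. CDKN2A, which encodes the inhibitor p16, had 246 TPM in MCC13 and was listed at 0 in REH, and its neighbour CDKN2B had 12.4 TPM in MCC13 and was listed at 0 in REH. CDKN2A was also listed at 0 in MKL-1, so a 0 there was not particular to REH.

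Stress and survival genes differed in a few members. Of 16 described p53 pathway genes, 1 was past 4-fold towards MCC13 and 4 towards REH (median -0.71). MDM2, the ligase that p53 induces, had 9.34 TPM in MCC13 against 117 TPM in REH, and CDKN1A had 45 TPM in MCC13 against 168 TPM in REH. GADD45A was the 1 towards MCC13, at 237 TPM in MCC13 against 44 TPM in REH. BCL2, the death antagonist, had 6.65 TPM in MCC13 against 139.9 TPM in REH, whereas BCL2L1 had 176 TPM in MCC13 against 78.1 TPM in REH and MCL1 166 TPM in MCC13 against 126 TPM in REH. In the BCL2 family 2 of 16 were past 4-fold towards MCC13 and 3 towards REH (median 0.09).

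Of 27 described interferon response genes, 1 was past 4-fold towards MCC13 and 8 towards REH (median -0.76). BST2, which tethers virus particles, had 6.93 TPM in MCC13 against 492 TPM in REH, and OAS2 had 1.36 TPM in MCC13 against 40.7 TPM in REH. The 1 towards MCC13 was IFITM3, at 413 TPM in MCC13 against 39 TPM in REH. NF-kB and TNF pathway genes were mixed, with 7 of 22 past 4-fold towards MCC13 and 3 towards REH (median 0.95). TRAF1 had 87.3 TPM in MCC13 against 1.41 TPM in REH, and CD274, which encodes PD-L1, had 22.2 TPM in MCC13 against 0.224 TPM in REH. TNFAIP3, an inhibitor of the pathway, had 49.98 TPM in MCC13 against 471 TPM in REH.

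The metabolic lists had medians between -0.88 and 0.66 and held a few wide gaps. Glycolysis had 2 of 22 described members past 4-fold towards MCC13 and 2 towards REH (median 0.49). SLC2A1, the glucose carrier, had 399 TPM in MCC13 against 28.8 TPM in REH, and SLC16A3, which exports lactate, had 249.7 TPM in MCC13 against 11.1 TPM in REH. In cholesterol and fatty acid synthesis 2 of 18 were past 4-fold towards MCC13 and 4 towards REH (median -0.88). SREBF1, which drives lipid synthesis, had 19.1 TPM in MCC13 against 331 TPM in REH, and SCD, a desaturase, had 107 TPM in MCC13 against 0.14 TPM in REH.

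Of the amino acid genes, 2 of 19 were past 4-fold towards MCC13 and 3 towards REH (median -0.44). These counts and those of glycolysis are near the shares over all described genes. Near them too are the counts towards MCC13 for cholesterol and fatty acid synthesis, the cyclin list and the BCL2 family. The same holds for the counts towards REH of MHC class I, receptor tyrosine kinase and HOX genes. PHGDH, which opens the path to serine, had 77.4 TPM in MCC13 against 809.9 TPM in REH. CBS, of cysteine synthesis, had 221 TPM in MCC13 against 0.0341 TPM in REH, and PYCR1, of proline synthesis, had 113 TPM in MCC13 against 0.191 TPM in REH. Both stood at 200 TPM or more in MKL-1, MKL-2 and WaGa, so REH was the low line. In the redox list 8 of 22 described genes were past 4-fold towards MCC13 and 1 towards REH (median 0.66), with NQO1 at 76.5 TPM in MCC13 against 2.86 TPM in REH.

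Respiratory genes differed by the genome that encodes them. Of the 13 mitochondrially encoded genes, 10 were past 4-fold towards MCC13 and 0 towards REH (median 2.68), and they summed to 28082 TPM in MCC13 and 4595 TPM in REH. MT-CO1, a subunit of cytochrome oxidase, had 4542 TPM in MCC13 against 854 TPM in REH. Of 21 subunits encoded in the nucleus, 0 were past 4-fold towards MCC13 and 1, COX6C, towards REH (median -0.15). COX4I1, of the same enzyme as MT-CO1, had 347 TPM in MCC13 against 354 TPM in REH. Ribosomal protein genes had 0 of 30 past 4-fold towards MCC13 and 1 towards REH (median -0.41).

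Genes of position and of chromatin closed the description. Of 28 described HOX genes, 12 were past 4-fold towards MCC13 and 3 towards REH (median 1.56). In the C cluster this was 8 of 8 described genes, with HOXC10 at 83.9 TPM in MCC13 against 0.508 TPM in REH. In the A cluster 1 of 11 was past 4-fold towards MCC13 and 3 towards REH, among them HOXA13 at 0.131 TPM in MCC13 against 11.4 TPM in REH. Of 26 chromatin regulators, 2 were past 4-fold towards MCC13 and 3 towards REH (median -0.53). Both counts are near the shares over all described genes. HMGA2, an architectural factor of embryonic tissue, had 258 TPM in MCC13 against 0.404 TPM in REH, and LMNA, the lamin of stiff nuclei, had 322 TPM in MCC13 against 10.5 TPM in REH. SATB1, an organiser of lymphoid chromatin, had 2 TPM in MCC13 against 77.7 TPM in REH. Some abundant housekeeping genes differed little, with EEF2, a translation factor, at 2670.4 TPM in MCC13 against 2764 TPM in REH, and ACTG1, cytoplasmic actin, at 3177 TPM in MCC13 against 3746 TPM in REH.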

How the data were processed

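RNA was sequenced from 1 library of each of 5 cell lines, from oligo-dT selected RNA with a directional kit, per the labels' protocols. The authors deposited 1 table of TPM per gene. Builds hg19 and GRCh37 are named in the submitters' processing notes, as are StringTie 1.3.5, STAR 2.4.5b, SAMtools 0.1.19 and bcl2fastq 2.20. An annotation was not given in the sources used here. Because TPM keeps no depth, depth is unknown and no interval was computed. In the table, 1 column matched no sample and was not used. Python 3.11.15, pandas 2.3.3, numpy 2.4.6 and matplotlib 3.10.9 were used. Gene types came from GENCODE 29, where 52338 gene IDs matched.

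Genes at 1 TPM or more in MCC13 or REH were described by the difference of log2(TPM + 1), with no test. Members and lists were chosen with earlier results of these data known. Of 942 distinct list entries in 44 lists, 940 were matched. Genes were named by fixed ranks: the 25 largest differences each way, up to 5 per list, all pair members, and the leading shared, lacked and similar genes. Other names were chosen after their values were seen, as were the printed promoters, which are from RefSeq. Pseudocounts, scalings, limits and the removal of zeros or mitochondrial genes were varied. The counting was tested on simulated data.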

Additional observations from a re-analysis of the deposited data

How the results depend on the processing

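No paired analysis was possible because each line has 1 library, and for the same reason no library could be left out. The 2233 genes higher in MCC13 by 4-fold became 1089 with a pseudocount of 5 TPM and 1487 without genes listed at 0, and 4559, 1285 and 416 with limits of 1, 3 and 5 on the difference. The 1741 genes higher in REH became 3285 with a pseudocount of 0.1 TPM, 812 with 5 TPM, 1053 among protein-coding genes alone, and 4953, 785 and 221 with limits of 1, 3 and 5. The 90 genes shared by both lines became 143 with limits of 5 and 1 TPM. Of the 225 named genes past 4-fold, 199 stayed past 4-fold with a pseudocount of 5 TPM. A change of pseudocount cannot turn the sign of a difference, so kept signs are no check of it. Under the scalings 0 named genes moved by 1.5-fold or more, so signs past 4-fold could not turn there either. Of the 19 list medians past 2 either way, 16 stayed so without genes listed at 0 and 15 with a pseudocount of 5 TPM. Depth is unknown, so levels near 0 have no stated precision.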

Other observations

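Runs of neighbouring protein-coding genes stood under 0.1 TPM in REH although at least 2 of the 4 other lines expressed each of them. There were 35 such runs of 4 to 15 genes in REH. Of these, 8 held 0 genes at 5 TPM or more in all 4 other lines, 15 held 1 and 12 held 2 or more. As background, 259 genes were under 1 TPM in REH and at 10 TPM or more in each of the 4 other lines, against 38 for MCC13. The longest run, 15 protocadherin genes on chromosome 5, held 0 genes at 5 TPM or more in all 4. The runs do not list every gene of their stretch, and PCDHA6, for example, is not listed between PCDHA5 and PCDHA7. On chromosome 9 a run of 10 genes that holds MTAP, CDKN2A and CDKN2B reached at most 0.00613 TPM in REH, and 5 of its genes were at 5 TPM or more in all 4 other lines. On chromosome 1 a run of 8 genes that holds TAGLN2 was listed at 0 throughout. On chromosome 12 a run of 7 keratin genes, KRT8 and KRT18 among them, was listed at 0, and on chromosome 2 a run of 8 holds HOXD genes and MTX2. MCC13 had 1 run of 4 genes, on chromosome 10, at 0.0467 TPM or less. The table gives expression only, and DNA copy number was not analysed here.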
